A study of Mus musculus with 6 samples.

Results

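Hi-C contacts that were strong at 48 h of retinoic acid treatment and were missing from the lists of both earlier time points are described here, in the mouse embryonal carcinoma line P19. A contact is a pair of 5 kb bins of 1 chromosome, given in mm9 coordinates. The contacts were chosen by position and by listed counts: an autosomal pair 20 kb to 1 Mb apart, a count of 0 in all T0 and T6 libraries, and counts in both T48 libraries of at least 2 times the lowest count that the library lists at that distance. This lowest listed count stands for the entry level of the list, and the lower of the 2 T48 ratios is called the strength of a contact. The criteria picked 12203 pairs of the 3654014 in the list, or 1.03% of the 1180199 autosomal pairs of 20 kb to 1 Mb listed at T48. Because T48 counts and the 0 values at T0 and T6 made the choice, those values are given as a description with no test.

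Hi-C joins DNA ends that lie close together in crosslinked nuclei and counts each junction by paired sequencing. Contacts within a chromosome become rarer with distance along the DNA, and contacts over many kilobases include loops held by CTCF and cohesin and contacts between enhancers and promoters. P19 cells are pluripotent cells from a teratocarcinoma, and all-trans retinoic acid (ATRA), a ligand of nuclear receptors that bind DNA, starts their path towards neural cells. Chromatin contacts are known to be rearranged in differentiating cells.

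The 6 libraries formed 3 groups of 2 replicates. All groups were P19 cells grown as a monolayer on gelatine-coated plates. T0 was untreated, and T6 and T48 were taken 6 h and 48 h after ATRA was added at 1e-06 M. No untreated cells were taken at 6 h or 48 h, so ATRA and time in culture cannot be told apart, and the labels do not say whether replicates were separate cultures. The autosomal listed counts of replicates 1 and 2 summed to 47648811 and 28307729 for T0, to 38449123 and 21935326 for T6 and to 41280183 and 28123131 for T48. Such sums hold listed pairs alone and do not give the sequencing depth. Both replicates of a time point were always listed or unlisted together (0 exceptions), so a 0 means that the pair was not listed at that time point. It is not a measured absence of contact, and numbers of listed pairs carry no replicate error.

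Most of the contacts lay just above the entry level. The strength was exactly 2 in 6695 of the 12203, above 2 and below 2.5 in 3505, at least 3 in 679, at least 4 in 92 and at least 5 in 22. T48 replicate 1 counted 6 to 100 read pairs per contact (median 11) and replicate 2 counted 6 to 712 (median 8). Where the entry level was 3 in both libraries, 3196 contacts passed, and 649 of them had just 6 read pairs in each replicate. Close outside the threshold stood 3386 pairs with a strength of 1.8 up to 1.95. A further 59194 pairs listed only at T48 passed in replicate 1 alone, and 46915 passed in replicate 2 alone. Single contacts near the threshold therefore rest on few reads.

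The entry level itself differed little between time points. Over the 196 possible distances, the lowest listed count of T48 replicate 1 equalled that of T0 replicate 1 at 171 distances, was lower at 24 and was higher at 1. For replicate 2 it was equal at 184 distances and higher at T48 at 12. Against T6 it was equal at 185 distances and higher at T48 at 11 for replicate 1, and equal at 160 and higher at 36 for replicate 2. The largest gap was 2 read pairs. It was the same on all 19 autosomes at every distance in each library. How the entry count relates to the read coverage of a bin was not tested.

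The same criteria with the time points exchanged gave 9715 strong contacts listed only at T0 (0.753% of pairs listed there) and 7257 listed only at T6 (0.676%). Among all 58096 pairs that were strong at T48, 59.5% were listed at all 3 time points, 11.5% also at T0 alone, 8.05% also at T6 alone and 21.0% only at T48. The last share was 14.5% for T0 and 13.8% for T6. The share fell with strength at every time point. Of pairs with a strength of 2 to 3, 24.8% were listed only there at T48, against 17.1% at T0 and 16.4% at T6. From a strength of 4, the numbers were 92 of 4147 at T48 (2.22%), against 0.446% at T0 and 0.642% at T6. A very strong contact found at a single time point was thus uncommon in every list, and the share was higher at T48 than at T0 or T6 in each class from a strength of 1.5. These are counts from 1 list per time point, so the differences were not tested.

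The contacts were long. Their median distance was 365 kb, against 275 kb and 285 kb for the sets listed only at T0 and only at T6. The whole T48 list was longer as well: all listed pairs had medians of 140, 145 and 170 kb at T0, T6 and T48, and all strong pairs 150, 155 and 210 kb. Strong T48 pairs listed at all 3 time points had a median of 165 kb. By distance class, 431 contacts spanned 20-50 kb, 837 spanned 50-100 kb, 1843 spanned 100-200 kb, 5329 spanned 200-500 kb and 3763 spanned 500-1000 kb. Per 1000 pairs listed at T48 this came to 1.71, 4.82, 8.36, 15.4 and 19.9. The T0 set gave 1.85 per 1000 at 20-50 kb and 11.6 at 500-1000 kb, and the T6 set gave 1.36 and 10.4. The T48 rate was above the T6 rate in all 5 classes and above the T0 rate in all but 20-50 kb, with its largest margin at 500-1000 kb. As a share of the strong pairs of a class, it was above both others throughout: 8.13% at 20-50 kb against 4.99% for T0 and 4.21% for T6, and 43.3% at 500-1000 kb against 31.0% and 30.0%. At 500-1000 kb the T48 rate was above the T0 rate and above the T6 rate on 19 of 19 autosomes each. At 20-50 kb it was above the T0 rate on 9 of 19. All autosomes come from the same list at each time point, so they are not independent replicates.

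**Figure D1:**
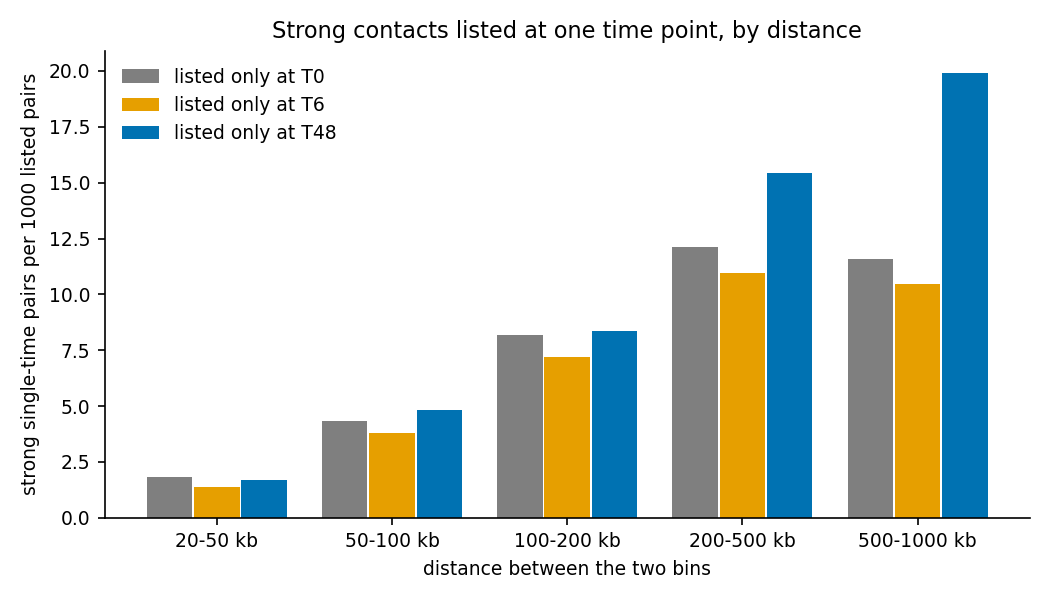
Strong contacts listed at a single time point, per 1000 pairs listed at that time point (y axis), in 5 classes of distance between the bins (x axis); bars stand for T0 (grey), T6 (orange) and T48 (blue), with no error because each time point has 1 list. The T48 bar reaches 19.9 at 500-1000 kb, where T0 and T6 stand at 11.6 and 10.4.

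Read numbers fell with distance. At 20-50 kb the median count was 35 in T48 replicate 1 and 24 in replicate 2, and at 500-1000 kb it was 8 and 7. The long contacts are therefore also those with the fewest reads. The rule asked both T48 replicates to pass, so their closeness is no check of the contacts. The log2 ratio of replicate 2 to replicate 1, scaled to the libraries' listed totals, had a median of 0.19 and a range from the 5th to the 95th percentile of -0.52 to 0.97. Replicate 2 was at least 4 times replicate 1 in 30 contacts, 9 of them on chromosome 5, and replicate 1 was at least 4 times replicate 2 in 13.

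Of the 10 strongest contacts, 6 joined bins with at most 3 listed partners each at T0 and at T6. These 10, taking at most 1 per Mb, lay on chromosomes 2, 6, 7, 13, 14, 17 and 19. First came chr6:132160001-132165000 with chr6:132315001-132320000, 155 kb apart, with 58 and 49 read pairs in the T48 replicates against entry levels of 6 and 5, a strength of 9.67. Its entry levels at T0 were 7 and 5, far below these T48 counts. Whether every pair above the entry level is listed is not known. Its left bin took part in 2, 6 and 11 listed pairs at T0, T6 and T48, and its right bin in 3, 1 and 12.

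Next in order was chr14:44950001-44955000 with chr14:45060001-45065000, 110 kb apart, with 55 and 40 read pairs and a strength of 7.86. No pair within 2 bins of it was listed at any of the 3 time points, so it stood as a single pair. On chromosome 7, chr7:15335001-15340000 and chr7:15695001-15700000, 360 kb apart, had 57 and 23 read pairs and a strength of 7.67, and each bin had 0 or 1 listed pairs at T0 and T6 and 5 at T48. On chromosome 19, chr19:9390001-9395000 and chr19:9690001-9695000, 300 kb apart, had 36 and 68. There replicate 2 had the higher raw count, as in 1947 contacts, against 8776 with a higher raw count in replicate 1. Replicate 1 has the larger listed total, and scaled to the totals the median log2 ratio of replicate 2 to replicate 1 was 0.19. The bins of the chromosome 19 contact had 0 listed pairs at T0 and 1 each at T6. The bins of these last 2 contacts had hardly been in the list before.

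The remaining 6 had 32 to 100 read pairs in replicate 1 and 17 to 61 in replicate 2. The shortest, chr6:101150001-101155000 with chr6:101180001-101185000, 30 kb apart, had 100 and 61 read pairs against entry levels of 15 and 10. Both of its bins had 10 to 13 listed pairs at T0 and T6 and over 70 at T48 (75 and 73). Alone among the 10, chr17:3570001-3575000 with chr17:3790001-3795000, 220 kb apart (36 and 23 read pairs), had a bin with fewer listed pairs at T48 than at T0, 20 against 25. The strongest contact above 500 kb, chr7:15480001-15485000 with chr7:16310001-16315000, 830 kb apart, had 34 and 17 read pairs, and both bins had 0 listed pairs before T48 and 5 and 4 at T48. A bin without any listed pair has no measured coverage in that library, so for such contacts a change of the contact and a change in all reads of the bin cannot be told apart.

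**Figure D2:**
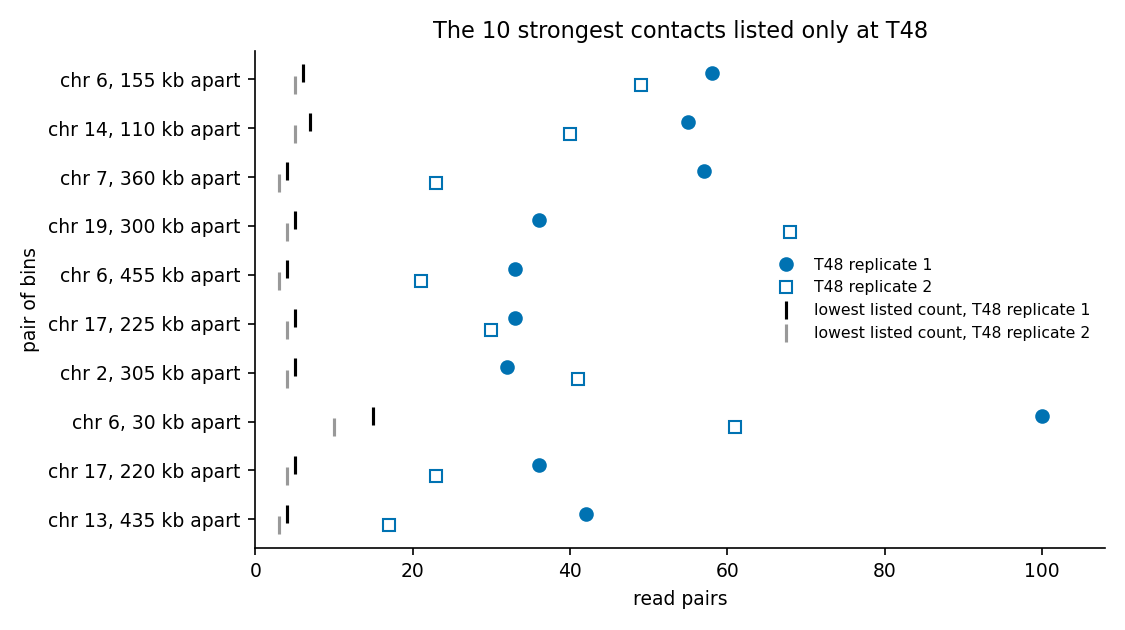
Read pairs (x axis) of the 10 strongest contacts listed only at T48 (y axis: chromosome and distance), with filled circles for T48 replicate 1, open squares for replicate 2 and vertical ticks for the lowest listed count of each library at that distance. Both replicates of every contact lie at more than 5 times their tick, and replicate 2 is the higher one in 2 of the 10.

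Sparse bins were commoner among the strongest contacts. Both bins had at most 3 listed pairs at T0 and at T6 in 394 of the 12203 contacts (3.23%), in 50 of the 679 with a strength of at least 3 (7.36%) and in 23 of the 92 with a strength of at least 4 (25%). Over all strong T48 pairs the share was 0.871%. In 698 contacts (5.72%), at least 1 bin had no listed pair of any kind at both T0 and T6, and in 44 both bins had none.

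Many contacts had a close neighbour in the earlier lists. For 7220 of the 12203 (59.2%), a pair with both bins shifted by at most 1 bin was listed at T0 or T6, and for 9125 (74.8%) one shifted by at most 2 bins was. That left 4983 with no such pair within 1 bin and 3078 with none within 2 bins. Long contacts were the more isolated ones: the share with a neighbour within 1 bin was 73.1% at 20-50 kb and 44.8% at 500-1000 kb. The sets listed only at T0 and only at T6 had a neighbour within 1 bin at another time point more often, in 69.1% and 66.0%, and in each of the 5 distance classes (85.5% and 86.5% at 20-50 kb, 54.5% and 53.3% at 500-1000 kb). At T48 itself 56.9% of the contacts had another listed pair within 1 bin. A contact new to the list at T48 was thus often beside a pair listed before, at a resolution of 5 kb.

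Joined when both bins lay within 25 kb, the contacts formed 10265 clusters. Of these, 9062 held a single contact (74.3% of all), 1128 held 2 to 4, and 75 held 5 or more, with 484 contacts in them. The largest cluster, of 14 contacts, joined chr14:75580001-75670000 with chr14:76090001-76140000, about 515 kb apart at its strongest contact. That rectangle of bins held 21, 19 and 56 listed pairs at T0, T6 and T48. Replicates 1 and 2 counted 177 and 107 read pairs in it at T0, 137 and 88 at T6, then 465 and 366 at T48. Both T48 libraries lay above all 4 earlier ones, as the choice of the cluster requires in part. A second cluster of 10 contacts lay beside it, chr14:75695001-75745000 with chr14:76060001-76125000, with 17, 15 and 43 listed pairs.

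Elsewhere, chr4:112505001-112565000 with chr4:113180001-113265000 held 10 contacts and 26, 25 and 48 listed pairs. The T0 replicates counted 171 and 398 there, the T6 replicates 164 and 296 and the T48 replicates 692 and 687, so replicate 2 was the higher at T0 and T6. The rectangle chr1:85095001-85200000 with chr1:85245001-85290000 also held 10 contacts, but the T0 replicates counted 907 and 4940, the T6 replicates 1071 and 4820 and the T48 replicates 1127 and 5347. Replicate 2 exceeded replicate 1 there at every time point, and the listed pairs numbered 35, 37 and 46. The last of the 5 largest, chr1:195760001-195885000 with chr1:196045001-196050000, had 0 listed pairs at T0 and T6 and 20 at T48, with 261 and 196 read pairs. All of its contacts shared a single right-hand bin.

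Most anchor bins carried a single contact, and a few bins were extreme. The 12203 contacts had 20769 different anchor bins among the 358176 autosomal bins with any listed pair. Of these anchors, 18149 carried 1 contact, 2546 carried 2 to 4 and 74 carried 5 or more. The 74 bins lay on 16 chromosomes, with 27 on chromosome 1, 17 on chromosome 14 and 7 on chromosome 6, and 579 contacts (4.74%) used at least 1 of them. Of the 19 bins with 10 or more contacts, 15 were on chromosome 1, 3 on chromosome 6 and 1 on chromosome 10. Chromosomes 1 and 6 held 6.95% and 5.61% of the pairs listed at T48. Chromosome 1 stood apart at every time point, with 99.2, 100 and 93.8 strong pairs per 1000 listed at T0, T6 and T48, the most of any autosome. Of its strong T48 pairs 10.3% were listed only at T48, the lowest share of any autosome. On chromosome 1, 288 of 793 contacts (36.3%) used a bin with 5 or more, and without them 6.15 per 1000 listed pairs were left in place of 9.66. The listed pairs of those bins stayed in the total, and other chromosomes were not treated alike. The 6.15 is therefore not comparable with the rates of other chromosomes.

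The bin with the most was chr1:196045001-196050000, with 28 contacts 25 to 755 kb away (median 247.5 kb), 24 on its left and 4 on its right. Its listed pairs numbered 13, 7 and 167 at T0, T6 and T48. All its listed pairs together had 183 and 113 read pairs in the T0 replicates, 151 and 86 in the T6 replicates and 2178 and 1589 in the T48 replicates. Its 2 neighbouring bins had 12 and 0 listed pairs at T48. The rise in the list thus did not extend to the left neighbour, and a right neighbour that was never listed cannot show where it ended. Second was chr1:171165001-171170000 with 26 contacts, and 4, 1 and 130 listed pairs. It had 115 and 68 read pairs in the T0 replicates, 52 and 31 in the T6 replicates and 1744 and 1161 in the T48 replicates. Then came chr6:101080001-101085000 with 18 contacts and 13, 2 and 77 listed pairs, chr1:67840001-67845000 with 17 contacts and 2, 2 and 118, and chr1:82475001-82480000 with 16 contacts and 19, 5 and 128. In all 5 bins both T48 libraries lay above the 4 earlier libraries, and partners spread to both sides over long distances. The bin 10 kb to the right of the second had 1, 1 and 20 listed pairs, and that 25 kb to the right of the third had 13, 59 and 79. Other bins within 30 kb of the 5 had at most 16 at T48.

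**Figure D3:**
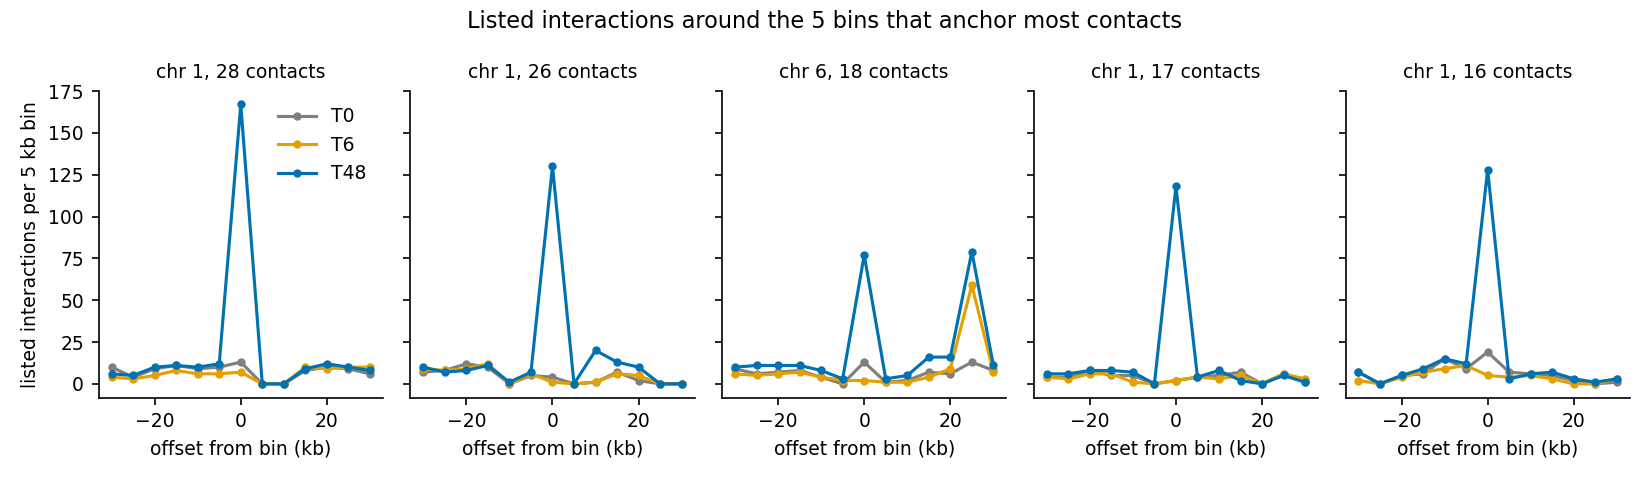
Listed interactions per 5 kb bin (y axis) against the offset in kb from each of the 5 bins that anchor most contacts (x axis), at T0 (grey), T6 (orange) and T48 (blue). At offset 0 the T48 line reaches 167, 130, 77, 118 and 128 interactions, and in the first panel the adjacent bins hold 12 and 0.

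Of the 19 bins, 17 were alike in level. Without the bin of chromosome 10 and chr1:85275001-85280000, which lies in the cluster with the replicate 2 excess, the other 17 had 1456 to 2178 read pairs in T48 replicate 1 and 924 to 1589 in replicate 2. In T0 replicate 1 they had 97 to 405. The highest neighbour within 2 bins had a median of 12 listed pairs at T48, and for 1 of the 19 bins a neighbour exceeded 50. The set listed only at T0 had bins of the same kind: 63 with 5 or more contacts and 19 with 10 or more, of which 7 lay on chromosome 1 and 2 on chromosome 6. Those 19 had a median of 87 listed pairs at T0, 14 at T6 and 15 at T48, with counts of 1956 and 1133, 373 and 194, and 298 and 217. The T6 set had 34 bins with 5 or more contacts and 3 with 10 or more. The 3 sets shared 0 of these bins. With 5 or more contacts they numbered 74, 63 and 34 for T48, T0 and T6, among 358176 listed bins. So few bins leave little room for overlap, and the rule lets a pair enter only 1 set, so nothing is read from the 0. Bins with many strong contacts at a single time point were therefore not particular to T48.

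On chromosome 5, chr5:15210001-15215000 anchored 8 contacts whose T48 counts were 9 to 33 in replicate 1 and 6 to 712 in replicate 2. Over all listed pairs the bin had 16 and 554 read pairs in the T0 replicates, 54 and 1060 in the T6 replicates and 342 and 3837 in the T48 replicates. The excess of replicate 2 was thus present at each time point. On chromosome 10, chr10:87785001-87790000 anchored 10 contacts, with 4, 0 and 26 listed pairs, and with 29 and 15 read pairs in the T0 replicates, 0 and 0 in the T6 replicates and 252 and 192 in the T48 replicates.

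The other contacts of the anchor bins can be compared between time points with the replicate error, since pairs listed at all 3 time points contain none of the 12203. Their counts were summed per bin and tested over 299523 bins, 16614 of them anchors, with edgeR's quasi-likelihood test and Benjamini-Hochberg adjustment. Between T6 and T0, the 1 contrast that does not involve T48, the fit with time point as its only term called 0 bins (0%) and so 0 anchors. At an unadjusted p under 0.05, edgeR passed 2.55% of all bins and 3.65% of anchors (606). After adjustment DESeq2's test called 47 bins and 4 anchors, and edgeR with the replicate number as a block called 35 and 1. The 0 thus depends on the fit. The T48 contrasts use the time point that chose the contacts, so they are given beside their background and nothing is read from the share. For T48 over T0, 16 bins were higher (0.00534%) and 29 lower (0.00968%), and 13 of the 16 and 0 of the 29 were anchors. For T48 over T6, 14 were higher (0.00467%) and 14 lower (0.00467%), with 13 and 0 anchors. The median log2 ratio over anchors was 0.02 for T48 over T0, beside 0.00 over all bins, so the shared contacts of a typical anchor had nearly the same level at T48 and T0.

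Of the 13 anchors higher at T48 than at T0, 9 lay on chromosome 1 and 3 on chromosome 6. Their log2 ratios were 1.18 to 1.76, with standard errors of 0.089 to 0.138 and edgeR adjusted p-values of 0.0202 to 0.0478. At T6 over T0 the same bins had log2 ratios of -0.16 to 0.27. The largest was chr1:170765001-170770000, with 4.03 ± 0.321 CPM (counts scaled to the library total of these sums) at T0, 3.995 ± 0.235 at T6 and 13.6 ± 0.116 at T48 (SD, n = 2), a log2 ratio of 1.76. The bin with 28 contacts, chr1:196045001-196050000, had 2.58 ± 0.080, 2.73 ± 0.085 and 7.20 ± 0.589 (log2 ratio 1.48, edgeR adjusted p 0.0303). On chromosome 6, chr6:101150001-101155000 had 3.66 ± 0.127, 3.83 ± 0.317 and 10.7 ± 0.597 (log2 ratio 1.55, edgeR adjusted p 0.0202). In these bins the contacts listed throughout, 4, 4 and 8 pairs in the order named, had higher summed counts at T48 as well. The bins were chosen through T48 and by this call, so their higher T48 level is a description. Outside chromosomes 1 and 6 the call was chr8:126050001-126055000, an anchor of 1 contact, with a log2 ratio of 1.58 (edgeR adjusted p 0.0478). The calls changed with the pairs and libraries used: with pairs of at least 20 kb alone 0 anchors were called, and leaving out 1 library gave 0 to 18 for T48 over T0 (18 without T48 replicate 1, 0 without any other) and 0 for T48 over T6. The log2 ratios of the 13 bins themselves moved by at most 0.13 in those fits for T48 over T0, to 1.12 at the lowest and 1.84 at the highest, with standard errors up to 0.195. The call favours bins whose replicates lie close together, so these small moves are no check of the calls. The 13 bins anchored 135 of the 12203 contacts (1.11%).

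Second in number of contacts, chr1:171165001-171170000 had a log2 ratio of 1.64 but did not pass (edgeR adjusted p 0.112), nor did chr6:101080001-101085000 (1.38, edgeR adjusted p 0.269), chr1:67840001-67845000 (1.46, edgeR adjusted p 0.264) or chr1:82475001-82480000 (1.11, edgeR adjusted p 0.834). In the last, the T0 replicates were apart, with 1.24 and 3.75 CPM, beside 5.14 and 5.00 at T48. All 18 tested bins with 10 or more contacts had log2 ratios above 0, from 0.35 to 1.76.

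In 5 of the 17 tested bins left without chr1:85275001-85280000, the T0 or the T6 replicates were at least 2-fold apart, with replicate 2 the higher in 4 of them. At chr1:190275001-190280000, for example, replicate 1 had 3.49 and 3.42 CPM at T0 and T6 and replicate 2 had 8.67 and 8.77, beside 9.39 and 10.9 at T48. At chr1:61325001-61330000, T6 replicate 1 had 5.77 and T6 replicate 2 had 2.45, beside 7.38 and 7.16 at T48. The T48 replicates were at most 1.38-fold apart in any of the 17. Contacts had to pass in both T48 replicates, and the bin left out had T48 replicates of 24.0 and 154 CPM. This closeness at T48 is therefore no check of the 17 bins. A raised level of such a bin was thus also seen in single libraries of the earlier time points, below the T48 level of the same bin.

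**Figure D4:**
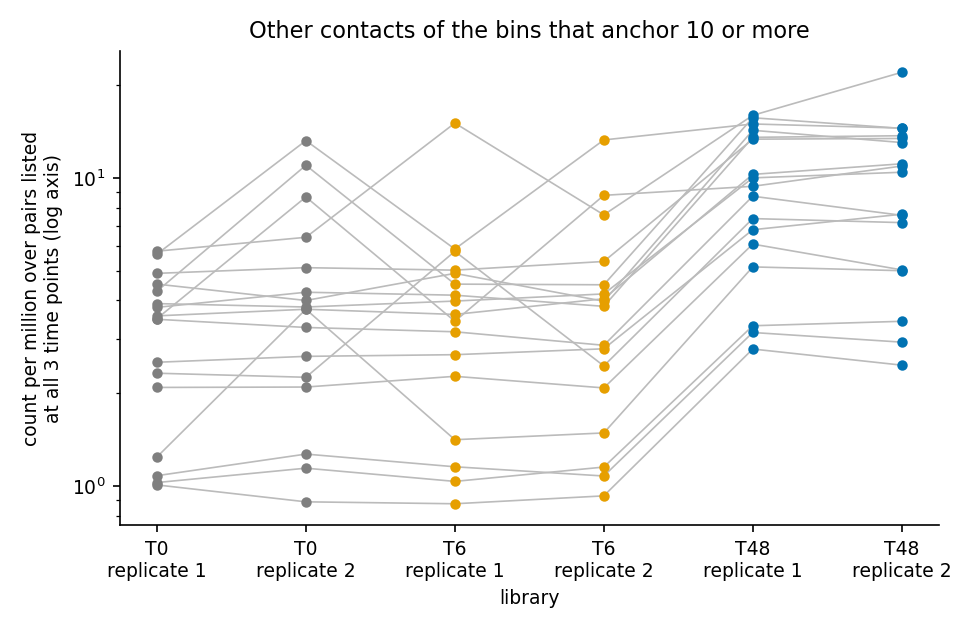
CPM over pairs listed at all 3 time points (y axis, log scale) in the 6 libraries (x axis) for the 17 tested bins with 10 or more contacts, without chr1:85275001-85280000, where T48 replicate 2 exceeds replicate 1; points are bins, and grey lines join the values of a bin. All 17 bins lie higher in both T48 libraries than in any T0 or T6 library, and single bins differ between the replicates of T0 or T6.

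Chromosome 14 held more of the contacts than its share of the list. It carried 1323 of the 12203 (10.8%) with 5.43% of the pairs listed at T48, or 20.6 per 1000, against 8.91 to 11.1 on the other 18 autosomes. The same held for the sets listed only at T0 (19.96 per 1000 against 6.09 to 7.52) and only at T6 (19.1 against 4.84 to 7.11). The excess lay in the part from 70 Mb onwards: 1068 contacts and 30.6 per 1000, against 33.0 at T0 and 30.1 at T6. Up to 70 Mb the chromosome had 255 contacts and 8.75 per 1000, beside 9.75 over the other autosomes. Distal chromosome 14 thus gave many strong contacts to every single-time set. Per listed pair its T48 rate was not above its T0 rate, but of its strong pairs 63.3% were listed only at T48, against 41.9% only at T0 and 42.8% only at T6. Strong pairs of any kind came to 78.8, 70.3 and 48.3 per 1000 listed at T0, T6 and T48.

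**Figure D5:**
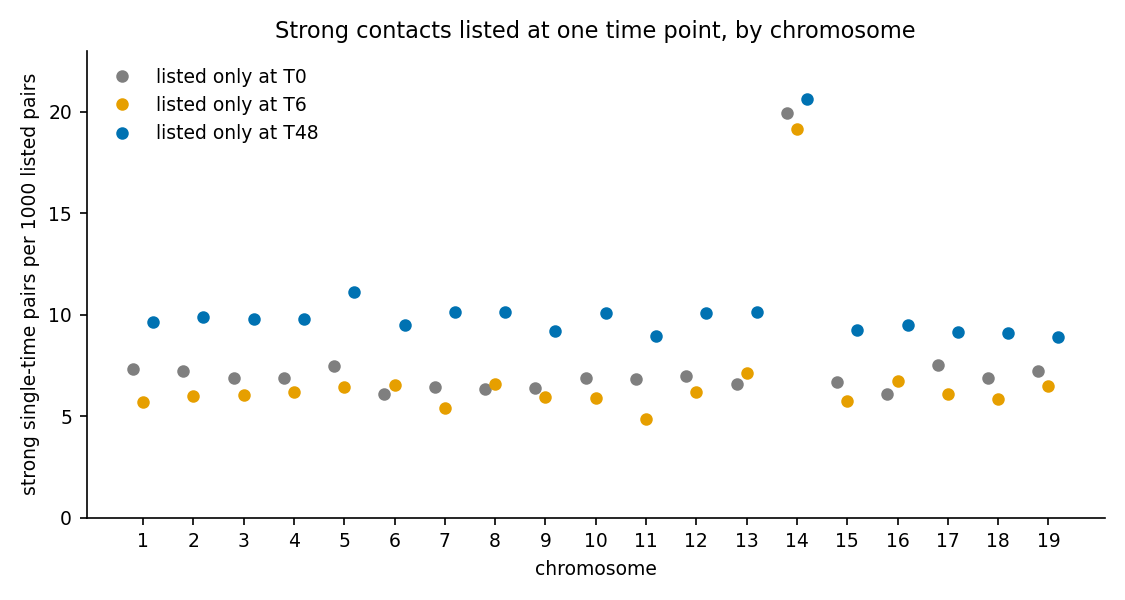
Strong contacts listed at a single time point per 1000 pairs listed at that time point (y axis) on each autosome (x axis), for T0 (grey), T6 (orange) and T48 (blue). Chromosome 14 stands at 19.96, 19.1 and 20.6, and every other T48 point lies between 8.91 and 11.1.

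Read levels on distal chromosome 14 were compared with those of the other autosomes. Pairs of adjacent bins (5 kb apart) from 70 Mb onwards had medians of 123 and 62 read pairs in the T0 replicates, 112 and 54 in the T6 replicates and 95 and 65 in the T48 replicates. On the other autosomes the medians were 84 and 46, 76 and 39, and 75 and 48. The region was thus higher than the rest in all 6 libraries, with the same lowest listed count on all autosomes. From T0 to T48 its counts fell relative to the other autosomes by 0.19 in replicate 1 and 0.086 in replicate 2 below 20 kb, and by 0.19 and 0.18 at 500-1000 kb, on the log2 scale. The part of these levels in the region's number of contacts was not tested. Without chromosome 14 from 70 Mb onwards 11135 contacts were left, and without bins of 5 or more contacts as well 10650. The median distance stayed at 365 kb and the share of at least 500 kb at 31.0%, beside 30.8% over all 12203.

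Anchors of the contacts had somewhat richer lists than other bins throughout. Their median number of listed pairs was 13 at T0, 11 at T6 and 14 at T48 (13 with the contacts themselves left out), beside 9, 8 and 9 over all listed bins. With the contacts left out, 41.7% of the anchors had more listed pairs at T48 than at T0 and T6, beside 30.2% of all bins. Anchors were chosen through T48, and 0 of them lacked a listed pair there, beside 2.11% of all bins. Leaving out the contacts does not undo that choice, so nothing is read from this difference. An anchor had 0 listed pairs at T0 in 1082 cases (5.21%, beside 3.55% of all bins) and at T6 in 1117 (5.38%, beside 4.16% of all bins). Group medians thus moved little, while single bins rose by far more, also outside chromosomes 1 and 6. For example, chr14:80005001-80010000 had 0, 0 and 25 listed pairs at T0, T6 and T48, and chr3:142265001-142270000 had 11, 8 and 52.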

How the data were processed

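The authors deposited 1 table in which each row is a pair of 5 kb bins and each library has a column of raw counts, per the file headers. The build was mm9, and the tools named were Bowtie2 and CASAVA 1.8.2, per the submitters' processing notes. Which enzyme cut the DNA, how significant interactions were called and whether coverage was corrected is not given in the sources used here. Read pairs carried no molecular identifiers.

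Contacts, entry levels, neighbours and clusters (both bins within 25 kb) were computed with Python 3.11.15 and pandas 2.3.3. Regions were named by rule: the 10 strongest contacts (1 per 1 Mb), the 5 largest clusters, the 5 bins with most contacts (1 per 500 kb) and the strongest contact of each distance class. Members, lists and tests were chosen with earlier results of these data known. Bins with 5 or more contacts, distal chromosome 14, the bins of chromosomes 5, 8 and 10, the bins chr14:80005001-80010000 and chr3:142265001-142270000, and the bins chr1:170765001-170770000, chr6:101150001-101155000 and chr1:85275001-85280000 as test results were singled out after their values were seen.

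For each bin, the counts of those pairs that all 3 time points list were summed and tested with edgeR 4.0.16 in R 4.3.3 (TMM, filterByExpr, quasi-likelihood F test, all 6 libraries in 1 fit, two-sided, Benjamini-Hochberg at 0.05). Each pair entered the sum of both its bins, and short pairs dominate by count. DESeq2 1.42.0 was an alternative. The fit was tested on simulated data with 200 changed bins. No mm9 genome or annotation was used here, so genes, sequences and motifs of the planned design were not analysed here.

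P-values measure only the spread between 2 libraries a group, which may be technical. Replicate numbers came from the sample titles.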

Additional observations from a re-analysis of the deposited data

Results flagged for a closer look

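The shared contacts of 13 anchor bins differed between T48 and T6 by edgeR's quasi-likelihood test (Benjamini-Hochberg), all higher at T48. In the same fit, with time point as its only term, these bins gave 0 calls between T6 and T0. The result was flagged because the calls differ between steps of the time course, which were not tested against each other. T48 is the time point that chose the contacts and so these bins, and the difference in calls is a description. Of the 13, 12 were also called for T48 over T0. The remaining one, chr1:179600001-179605000, had a T48 over T6 log2 ratio of 1.51 beside -1.14 for T6 over T0 (edgeR adjusted p 0.156), with 11.8, 5.38 and 15.3 CPM at T0, T6 and T48.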

How the results depend on the processing

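The number of contacts follows the threshold: 12203 became 58951 at 1.5 times the lowest listed count and 679 at 3 times. It became 4983 when no pair within 1 bin, and 3078 when no pair within 2 bins, could be listed at T0 or T6. Asking 1 T48 library alone gave 59118 to 71397. Entry levels taken per chromosome left it at 12203, and clusters of 10 kb or 50 kb numbered 11413 or 8946 beside 10265. Added after the data were seen, leaving out distal chromosome 14 and bins of 5 or more contacts gave 10650, and leaving out contacts with T48 counts 4-fold apart gave 12160.

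The calls of anchor bins by edgeR depend on the test. T48 over T0 went from 13 to 68 with DESeq2's test, to 0 with pairs of at least 20 kb, and to 0 to 18 leaving out 1 library. T48 over T6 went from 13 to 53, to 0 and to 0 to 0, and T6 over T0 went from 0 to 4 with DESeq2. DESeq2 size factors and no filter gave 13, 13 and 0. DESeq2's calls were higher at T48 in 56 of the 68 and 45 of the 53. With the replicate number as a block, 53, 46 and 1 anchors were called, beside 220, 212 and 35 over all bins. Of these, 43 and 36 were higher at T48 and 10 each lower, while the main calls held no lower anchor. All 13 calls of T48 over T0, and all 13 of T48 over T6, were among the blocked calls. Same-numbered libraries had correlations of deviations of 0.465 to 0.548. Libraries of 1 number thus tended to deviate together, and the main fit counts this shared part as spread. For T6 over T0, edgeR passed 7623 bins at an unadjusted p under 0.05 without the block and 15420 with it. The 0 calls of the main fit between T6 and T0 are therefore no sign that bins were unchanged. The labels give no common origin to a number, and with 2 numbers a pairing by origin is not settled. Few reads per contact, and 1 list per time point, limit what the counts can show.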

Other observations

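On chromosome X, outside the rule, the same criteria gave 2251 strong pairs listed only at T0 (28.5 per 1000 listed), 1596 only at T6 (22.98) and 1973 only at T48 (26.6). As on distal chromosome 14, these rates were above those of the other autosomes at all 3 time points, and the T48 rate was not the highest. By blocks of 10 Mb, the 6 highest T48 rates of 252 autosomal blocks were all on chromosome 14 between 70 and 130 Mb, at 27.8 to 36.6 per 1000. Next came chromosome 6 from 100 to 110 Mb at 21.7, chromosome 7 from 10 to 20 Mb at 21.3 and chromosome 1 from 60 to 70 Mb at 19.8.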
